A study of Homo sapiens with 3 samples.

Results

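The m6A writer and eraser genes are 10 coding genes, METTL3, METTL14, METTL16, WTAP, VIRMA, ZC3H13, RBM15, RBM15B, ALKBH5 and FTO. They were chosen by function, and their peaks are those whose centre lay in the span that NCBI RefSeq gives each gene on GRCh38.p14. This took 21 of the 21031 peaks of an eCLIP of the pregnane X receptor (PXR), in 8 of the 10 genes. The method eCLIP joins RNA to proteins with UV light, pulls down 1 protein and sequences the RNA that comes with it. It was run on LS174T, a line from a human colon adenocarcinoma, 24 h after transfection with mouse Pxr carrying an HA tag. The series holds 2 PXR immunoprecipitate replicates and 1 input library, all from cells with the same construct and the same irradiation at 254 nm. The human cells thus carried a mouse receptor from a plasmid beside any receptor of their own, and no library of cells without the construct was used here. Antibodies to PXR or HA and a control IgG appear in the protocol, without saying which of them made which library.

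The mark m6A is a methyl group on adenosine in RNA, the most common internal mark of mRNA. It is placed in the nucleus by a writer complex in which METTL3 is the catalytic subunit and METTL14 its RNA-binding partner, held in place by the regulatory subunits WTAP, VIRMA, ZC3H13, RBM15 and RBM15B. METTL16 is a separate methyltransferase, and the dioxygenases ALKBH5 and FTO remove the mark.

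The data are 1 peak list with no columns of single libraries, so replicate error is unknown for every value and the immunoprecipitate was not tested against the input. The fold of a peak is the authors' summit reads over a local background, with 1 added to each. Reads at the summit, and the background in reads per 200 bases, were recovered from the deposited fold and −log10 p. Intervals on reads are exact 95% Poisson intervals and cover counting error only. Scaled to 10 kb, the background was a whole number of reads within 0.05 in all 21 peaks of these genes, and in 96.8% of the whole list. Of 12 colon epithelium markers 11 had a peak, while none of 3 hepatocyte, 3 blood or 3 stroma and endothelium markers did (Wilson interval up to 56.1% for each of these lists). The share over all coding genes was 41.6%, which lies inside that interval, so 0 of 3 does not depart from it. Expression was not measured here, so the amount of an RNA and its binding cannot be told apart in any value below.

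Of the 9 genes with an entry in the RefSeq table of gene starts, 4 had a peak that began within 150 bases downstream of an annotated start. This limit only sets which windows are printed, and the share over all coding genes was not computed for it. The first RBM15 peak began 250 bases after its start and fell outside the limit. The sequences around the 4 starts are shown because they are the nearest reference sequence to a peak that the table holds. They run 5′ to 3′ on the gene strand (GRCh38.p14) from 250 bases before the start to 30 after it, with the bases from the start onward in capitals. ALKBH5 lies at chr17:18183578-18183857 on the plus strand, WTAP at chr6:159727256-159727535 on the plus strand, METTL3 at chr14:21511311-21511590 on the minus strand and RBM15B at chr3:51391035-51391314 on the plus strand.
ALKBH5: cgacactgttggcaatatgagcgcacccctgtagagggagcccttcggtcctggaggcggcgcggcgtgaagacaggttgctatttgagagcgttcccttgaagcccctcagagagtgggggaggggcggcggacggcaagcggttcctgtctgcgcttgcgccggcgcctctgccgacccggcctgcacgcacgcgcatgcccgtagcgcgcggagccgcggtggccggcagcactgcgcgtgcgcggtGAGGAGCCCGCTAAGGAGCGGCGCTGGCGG
WTAP: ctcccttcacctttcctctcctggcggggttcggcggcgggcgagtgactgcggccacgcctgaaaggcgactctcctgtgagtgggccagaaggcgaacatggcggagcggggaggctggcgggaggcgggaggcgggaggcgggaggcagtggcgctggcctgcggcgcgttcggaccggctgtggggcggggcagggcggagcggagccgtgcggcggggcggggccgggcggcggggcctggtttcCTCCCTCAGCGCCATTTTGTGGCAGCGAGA
METTL3: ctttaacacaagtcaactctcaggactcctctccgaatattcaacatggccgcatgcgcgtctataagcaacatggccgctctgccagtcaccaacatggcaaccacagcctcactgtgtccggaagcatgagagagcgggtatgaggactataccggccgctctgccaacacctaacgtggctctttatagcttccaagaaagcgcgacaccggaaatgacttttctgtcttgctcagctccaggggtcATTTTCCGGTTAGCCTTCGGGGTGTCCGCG
RBM15B: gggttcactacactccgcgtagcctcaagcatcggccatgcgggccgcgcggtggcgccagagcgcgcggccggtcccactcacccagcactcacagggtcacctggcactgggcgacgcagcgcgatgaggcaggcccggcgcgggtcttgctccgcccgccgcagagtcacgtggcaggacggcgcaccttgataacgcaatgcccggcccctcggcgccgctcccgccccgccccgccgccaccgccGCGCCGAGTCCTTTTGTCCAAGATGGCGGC
The ALKBH5 peak began 6 bases after the start, so the last 24 bases printed for it lay inside the peak. The WTAP peak began 58 bases after the start shown, the METTL3 peak 96 bases and the RBM15B peak 149 bases after it, beyond the printed bases. WTAP has another annotated start, 447 bases upstream of that peak. The WTAP window lies wholly downstream of that other start, so its lower-case bases can be transcribed from there.

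The motif GGAC, the core of the m6A consensus, and AGGTCA, a motif that nuclear receptors bind in DNA, were searched for in these 280-base windows on both strands. On the gene strand GGAC occurred 1 time at ALKBH5, 1 time at the WTAP start shown, 2 times at METTL3 and 1 time at RBM15B. All of these lay in the lower-case bases, so none was in the RNA that begins at the start shown. On the opposite strand GGAC occurred 1 time at ALKBH5, 0 times at WTAP, 2 times at METTL3 and 3 times at RBM15B. Among the 22199 windows of coding genes in the table, 66.3% held GGAC on the gene strand and 87.9% on either strand. The longer form GGACT, which contains GGAC, occurred 2 times at METTL3 on the gene strand and 1 time at RBM15B on the opposite strand, and 42.8% of all windows held it on either strand. AGGTCA was found on neither strand of the 4 windows, and 11.3% of all windows held it on either strand. The window at the other WTAP start, not printed here, held AGGTCA 1 time on the opposite strand. The letters of these windows were G or C at 70.7% for ALKBH5, 74.6% for WTAP, 53.9% for METTL3 and 73.6% for RBM15B, against a median of 62.1% in all windows. Sequence under the peaks themselves was not analysed here.

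Most of the 10 genes that place or remove m6A were in the list. A peak was found in 8 of the 10 (80.0%, Wilson interval 49.0 to 94.3%), and in 41.6% of the 20037 coding genes on chromosomes 1 to 22, X and Y. By length, both genes under 10 kb (RBM15 and RBM15B) had a peak, against 28.1% of such coding genes, as did all 4 of 10 to 50 kb (METTL3, METTL14, WTAP and ALKBH5), against 44.3%. Of the 3 genes of 50 to 100 kb only ZC3H13 had one, against 50.1%, and FTO, the single gene over 100 kb, had one, against 50.3%. There were 2 or more peaks in 5 of the 10 genes, against 24.3% of coding genes. The regulatory genes are 5 of the 10, and the 4 of them with a peak held 15 of the 21 peaks. Of these 15, 6 were in ZC3H13 and 4 were adjoining peaks of RBM15B. The erasers held 4 peaks and the catalytic core 2. These are descriptions of 1 list, with no test.

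**Figure D1:**
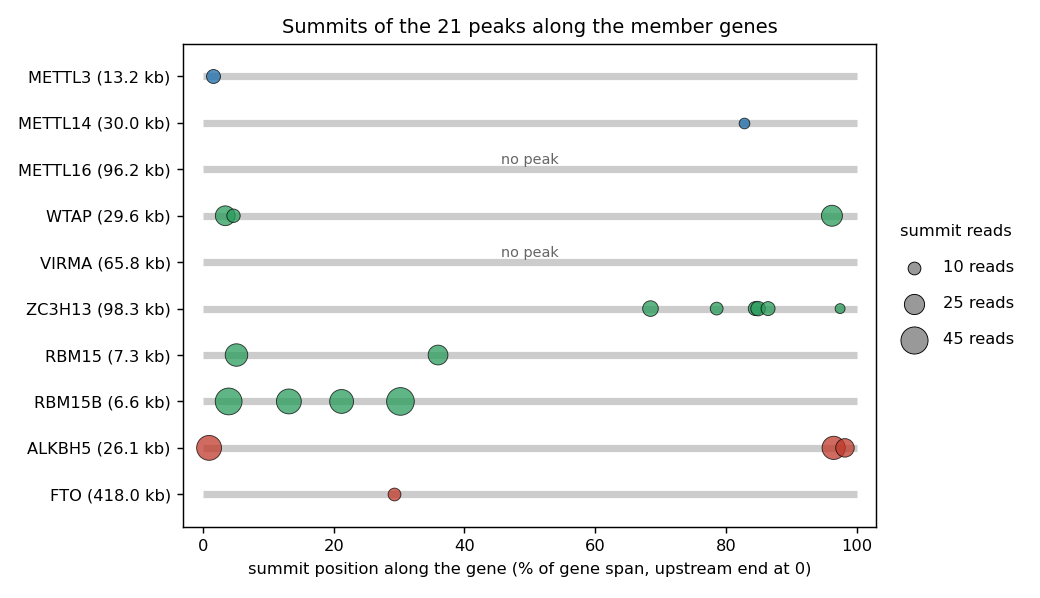
Position of each of the 21 summits along its gene, in percent of the gene span with the upstream end at 0, for METTL3, METTL14, METTL16, WTAP, VIRMA, ZC3H13, RBM15, RBM15B, ALKBH5 and FTO, with circle area in proportion to the reads at the summit. Summits of WTAP and ALKBH5 lie at both ends, those of RBM15 and RBM15B in the first 40% and those of ZC3H13 in the downstream part, while METTL16 and VIRMA have none.

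Every peak lay on the strand of its gene. The table gives the strand of 9 of the 10 genes, all but VIRMA, and 21 of 21 peaks were on it. For peaks that lay in 1 gene span of known strand this was 18 of 18, against 98.4% of 13970 coding-gene peaks. By gene, 8 of these 9 had a peak on their own strand, against 41.5% of the 15843 coding genes of known strand, and 0 of 9 had one on the opposite strand, against 4.76%. Of the 21 peaks 18 lay in no other gene span, and the other 3 were those of WTAP, which lies inside the span of SOD2, the gene of mitochondrial superoxide dismutase. SOD2 is on the opposite strand, so the strand of the WTAP peaks was that of WTAP and not of SOD2. Exon positions were not used here, so peaks were not divided into exonic and intronic ones.

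The catalytic core held few reads. METTL3, on chromosome 14 from 21498138 to 21511340 (minus strand), had 1 peak at 21511021 to 21511244, with 12 reads at the summit (Poisson interval 6.20 to 21.0) and a fold of 6.57. Its summit lay 209 bases from the upstream end of a gene of 13203 bases. METTL14, on chromosome 4 from 118685392 to 118715430 (plus strand), had 1 peak at 118710188 to 118710387, with 7 reads (2.81 to 14.4) and a fold of 4.40. That peak was 200 bases wide, the narrowest width in the list, and lay at 82.8% of the gene length. Among the 8329 coding genes with a peak, 4.55% had a deepest summit of no more reads than METTL14 and 21.3% no more than METTL3. The intervals of METTL3 and METTL14 overlap, so the counts do not separate them.

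No peak centre lay in METTL16, on chromosome 17 from 2415715 to 2511888, or in VIRMA, on chromosome 8 from 94487689 to 94553469. METTL16 methylates a spliceosomal RNA and hairpins of MAT2A mRNA, and VIRMA, the largest subunit of the writer complex, is a scaffold that directs it along mRNA. The nearest peak to METTL16 lay 14860 bases away in MNT, and the nearest to VIRMA 87301 bases away in RAD54B. The smallest summit in the whole list had 4 reads. Whether these RNAs were too scarce for a peak was not tested.

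WTAP, the subunit that brings the catalytic core to nuclear speckles, had peaks near both ends. The gene lies on chromosome 6 from 159726693 to 159756319 (plus strand) and had 3 peaks. The first, at 159727564 to 159727867, had 24 reads (15.4 to 35.7) and a fold of 8.01, with its summit 1014 bases from the upstream end. The next began 60 bases after it and had 11 reads (5.49 to 19.7) at a fold of 3.77. The last, at 159755094 to 159755635, had 27 reads (17.8 to 39.3) and a fold of 6.80, with its summit 1127 bases from the downstream end. The first and last summits do not differ beyond counting error, and between the second and last peaks 26911 bases held no peak. A further peak, on the minus strand at 159726387 to 159726746, covered the first 54 bases of the span with its centre 127 bases outside, so it is not counted for WTAP. It had 12 reads (6.20 to 21.0) at a fold of 4.48 and its centre lay in SOD2.

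ALKBH5, the eraser found mainly in the nucleus, had the same layout, and its first 2 peaks had the highest −log10 q of all 21. It lies on chromosome 17 from 18183828 to 18209954 (plus strand). Its first peak, at 18183834 to 18185059, covered 1226 bases, the widest of the 21, with 38 reads (26.9 to 52.2) at the summit, a fold of 7.56 and a −log10 q of 20.0. The peak at 18208891 to 18209230 had 33 reads (22.7 to 46.3) and a fold of 8.21, the highest of the 21. The last, at 18209351 to 18209901, had 21 reads (13.0 to 32.1) and a fold of 5.39, and its summit lay 474 bases from the downstream end. All 3 intervals overlap, and 23831 bases between the first and second peaks held none. Summits in both the first and the last 5% of the gene were found in 2 of the 5 genes with 2 or more peaks, WTAP and ALKBH5, against 30.7% of the 3858 coding genes of known strand with 2 or more peaks on it. These limits, and the other limits on position below, were chosen after the positions were seen.

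**Figure D2:**
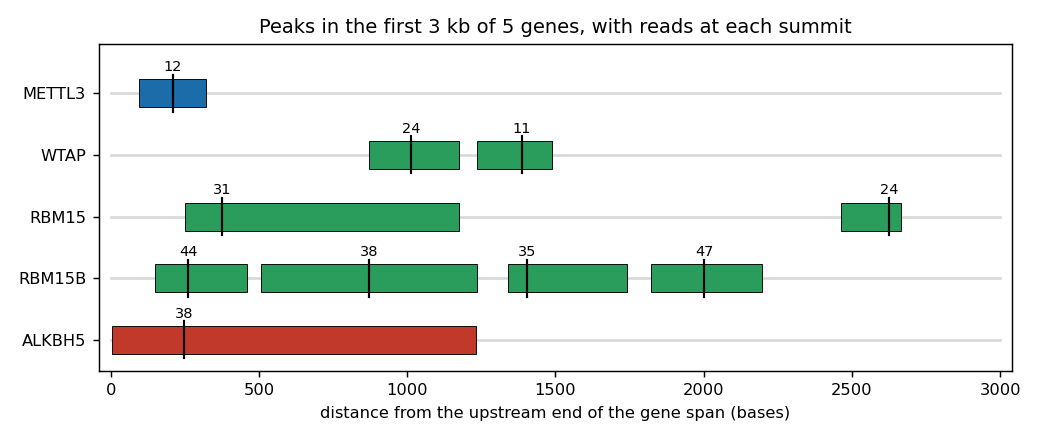
Peaks as bars, with a line at each summit and its reads above, by distance in bases from the upstream end of the gene span, for the first 3 kb of METTL3, WTAP, RBM15, RBM15B and ALKBH5. The 4 RBM15B peaks follow each other with gaps of 48 to 106 bases, and the ALKBH5 peak begins 6 bases into the gene.

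RBM15 and RBM15B, related RNA-binding proteins that bring the writer complex to uridine-rich RNA, held their peaks in the upstream part. RBM15B, on chromosome 3 from 51391285 to 51397908 (plus strand), had 4 peaks between 51391434 and 51393482. Their summits held 44 (32.0 to 59.1), 38 (26.9 to 52.2), 35 (24.4 to 48.7) and 47 reads (34.5 to 62.5), in order along the gene. The 4 intervals overlap, so no summit stands out from the others beyond counting error. The gaps between these peaks were 48, 106 and 81 bases, and the peaks covered 27.4% of the gene span. Joined across gaps of up to 500 bases they make 1 region. RBM15, on chromosome 1 from 110339377 to 110346677 (plus strand), had a peak of 924 bases at 110339627 to 110340550, with 31 reads (21.1 to 44.0) and a fold of 4.95. Its other peak, at 110341841 to 110342040, was 200 bases wide with 24 reads (15.4 to 35.7) and a fold of 3.42. All summits of RBM15 and of RBM15B lay in the first 40% of the gene, as in 9.28% of the 3858 coding genes with 2 or more peaks on their strand. With 4 or more peaks this layout was found in RBM15B, 1 of 2 such genes here, and in 1.34% of 1190 coding genes. Both genes are short, at 7301 and 6624 bases.

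ZC3H13, which anchors the writer complex in the nucleus, had the most peaks of the 10 genes, and all were shallow. It lies on chromosome 13 from 45954465 to 46052746 (minus strand) and had 6 peaks with 6 to 15 reads. The one with the highest fold, at 45985308 to 45985627, was also the deepest, with 15 reads (8.40 to 24.7) at a fold of 8.08, and it was the only one of the 6 with a −log10 q above the list median of 9.14. The widest, at 45956652 to 45957069, had 6 reads (2.20 to 13.1), a fold of 4.38 and a −log10 q of 2.51, the lowest of the 21 peaks. The other 4 had 10 to 13 reads and folds of 4.17 to 6.04. All 6 intervals overlap. The summits lay at 68.4 to 97.4% of the gene length, and 67272 bases upstream of the first summit held no other. A layout with every summit beyond 66.7% of the gene was found in 2.44% of the 1190 coding genes with 4 or more peaks on their strand, and among these 10 genes in ZC3H13, 1 of 2 with so many.

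FTO, the eraser whose gene variants are linked to body weight, had 1 peak in 417979 bases. The gene lies on chromosome 16 from 53703963 to 54121941 (plus strand). The peak, at 53826009 to 53826490, lay 122201 bases from the upstream end, with 10 reads (4.80 to 18.4) and a fold of 6.18. ALKBH5 and FTO thus differed in depth: the lowest bound for the first ALKBH5 summit, 26.9 reads, lies above the highest for FTO, 18.4, while the interval of the last ALKBH5 summit overlaps it. FTO had 0.0239 peaks per 10 kb of gene and ALKBH5 1.15, against a median of 0.616 among coding genes with a peak. With 1 peak the FTO value is set by the length of the gene. The median was not matched for length, and the median length of all coding genes was 24115 bases.

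**Figure D3:**
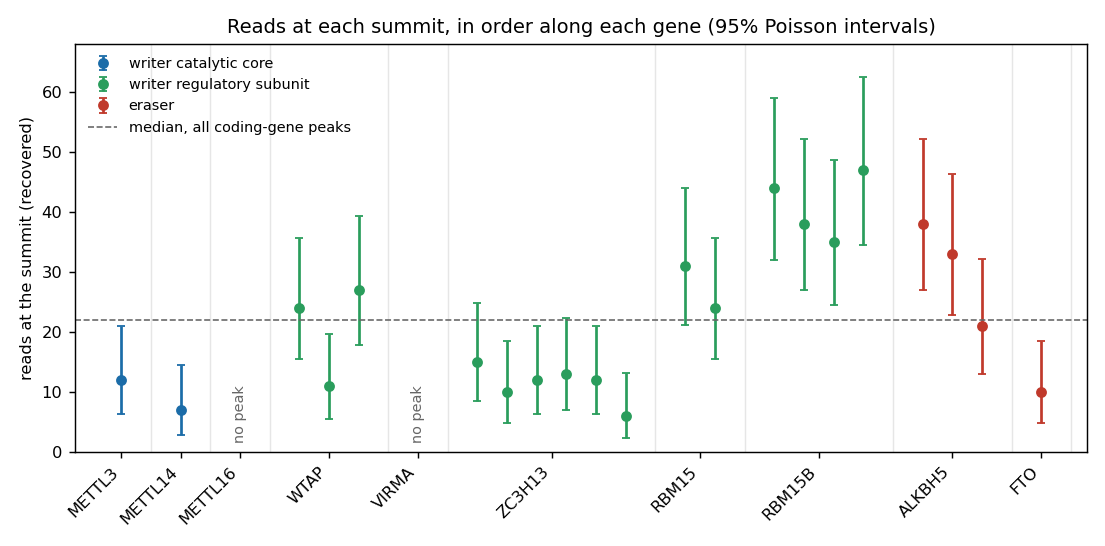
Reads at each summit with exact 95% Poisson intervals, in order along each gene, and the median of 22 reads over all coding-gene peaks as a dashed line. All 4 RBM15B intervals lie above that line, while every ZC3H13, METTL3, METTL14 and FTO point lies below it.

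Ordered by the deepest summit, which counts reads over a fixed length, the genes ran RBM15B with 47 reads, ALKBH5 with 38, RBM15 with 31, WTAP with 27, ZC3H13 with 15, METTL3 with 12, FTO with 10 and METTL14 with 7. The intervals of each pair of neighbours in this order overlap. RBM15B, whose interval begins at 34.5 reads, stands above ZC3H13, METTL3, FTO and METTL14, none of which reaches beyond 24.7. Among coding genes with a peak, 83.6% had a deepest summit of no more reads than RBM15B, 77.0% no more than ALKBH5 and 13.7% no more than FTO. RBM15B held 34.9% of the 470 reads summed over the 21 summits.

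Ordered by fold, RBM15B came last. Its highest fold was 4.09, and 2.76% of coding genes with a peak had a highest fold of no more than that, while its 4 folds ran from 2.97 upward. The background around its summits was 10.7 to 11.1 reads per 200 bases (537 to 556 reads in 10 kb), the highest of the 8 genes with a peak. RBM15 had 273 and 316 reads in the 10 kb of its 2 peaks, ALKBH5 154 to 208, WTAP 106 to 156, ZC3H13 30 to 106, METTL3 49, METTL14 41 and FTO 39. No peak of another gene on the same strand lay within 5 kb of the centre of any of the 21 peaks. Each RBM15B peak had the other 3 peaks of RBM15B within that distance. Which library the background came from was not tested here, so the fold is not to be read as enrichment over the input. In 0 of the 21031 peaks was the background in 10 kb below the summit reads. In 96.8% of them it was a whole number of reads, without scaling to another library. If the background was counted in the immunoprecipitate, the reads of those 3 peaks are part of the background of each RBM15B peak. The reads at an RBM15B summit equalled 6.29 to 8.75% of the background reads in 10 kb, and those at the METTL3 summit 24.5%. The fold therefore places METTL3 and FTO above RBM15B although RBM15B had more reads.

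**Figure D4:**
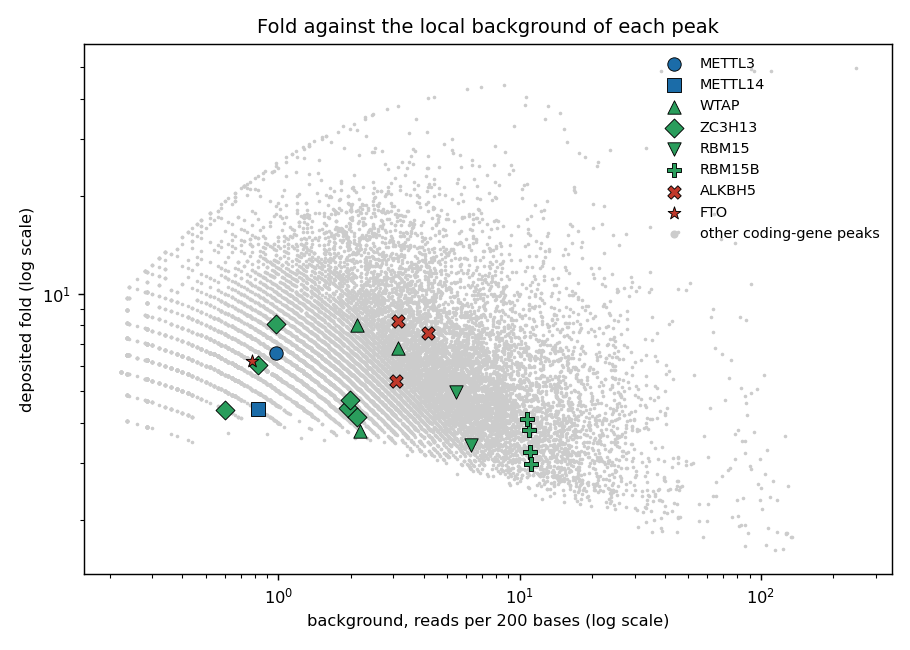
Deposited fold against the recovered background in reads per 200 bases, both on log scales, for the 21 peaks by gene (coloured symbols) and all other coding-gene peaks (grey). RBM15B lies at the right with folds of 2.97 to 4.09, and METTL3, METTL14 and FTO at the left with folds of 4.40 to 6.57.

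As a set, the 21 peaks had a median of reads near that of all coding-gene peaks and a median fold below it. The median summit had 21 reads (binomial interval of the median 12 to 33), against 22 over the 19269 coding-gene peaks. That nearness rests on the 4 adjoining peaks of RBM15B, without which the median was 13 reads. The median fold was 4.70 (4.09 to 6.57), against 5.93, and no fold exceeded 8.21. Without RBM15B the median fold was 5.39. With peaks at most 500 bases apart merged, each region given its highest fold, it was 6.04, above the 5.93 of the unmerged coding-gene peaks. The median width was 340 bases (255 to 482), against 268, and 5 peaks (23.8%) were over 500 bases wide, against 13.8%. The median −log10 q was 6.92 (4.40 to 10.6), against 9.18. For reads, fold, width and −log10 q alike, the coding-gene median lies inside the interval of the 21 peaks. Summits within 1000 bases of the upstream end made up 5 of 21 (23.8%), against 25.5% of coding-gene peaks on the strand of their gene, and those within 1500 bases of the downstream end 3 of 21 (14.3%), against 19.6%. The peaks share genes and local background, so they are not independent, and none of these differences was tested.

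With only the more significant peaks kept, those with a −log10 q at or above the list median of 9.14, the list held 8 peaks in 5 of the 10 genes, against 25.9% of coding genes. These were WTAP, ZC3H13, RBM15, RBM15B and ALKBH5, and METTL3, METTL14 and FTO were no longer among them.

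Other genes of the m6A pathway also had peaks. Of 10 m6A readers, proteins that bind the mark, 8 had a peak (80.0%, Wilson interval 49.0 to 94.3%), with a median of 28 reads over 24 peaks. HNRNPA2B1 had the deepest summit, with 138 reads at a highest fold of 8.90, HNRNPC had 73 reads and YTHDF3 the highest fold of 11.2, while YTHDC1 and IGF2BP1 had no peak. Of 6 other methyltransferases and writer partners 4 had one (66.7%, 30.0 to 90.3%). TRMT112, the partner of several methyltransferases, led with 65 reads and a fold of 11.0, but 3 of its 4 peaks lay where genes overlap and 2 of the 4 were on its strand. PCIF1 had 11 reads and METTL4 a fold of 5.36.

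A peak was found in all 4 genes of a list on S-adenosylmethionine, the methyl donor of the writers (Wilson interval from 51.0%). MAT2A, the synthetase whose mRNA METTL16 methylates, had 4 peaks and a deepest summit of 85 reads at a highest fold of 5.14. AHCY, which clears the product S-adenosylhomocysteine, had 6 peaks and 50 reads, and MAT2B, the regulatory subunit of the synthetase, reached a fold of 9.41. AHCYL1, which resembles AHCY but is not known to share its activity, reached 15.8. Of 7 other AlkB dioxygenases, relatives of ALKBH5 and FTO, 2 had a peak (28.6%, 8.22 to 64.1%), ALKBH7 with 24 reads at a fold of 7.40 and ALKBH2 with 15 reads at 6.90. The intervals of all 5 lists overlap, and differences between the lists were not tested.

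**Figure D5:**
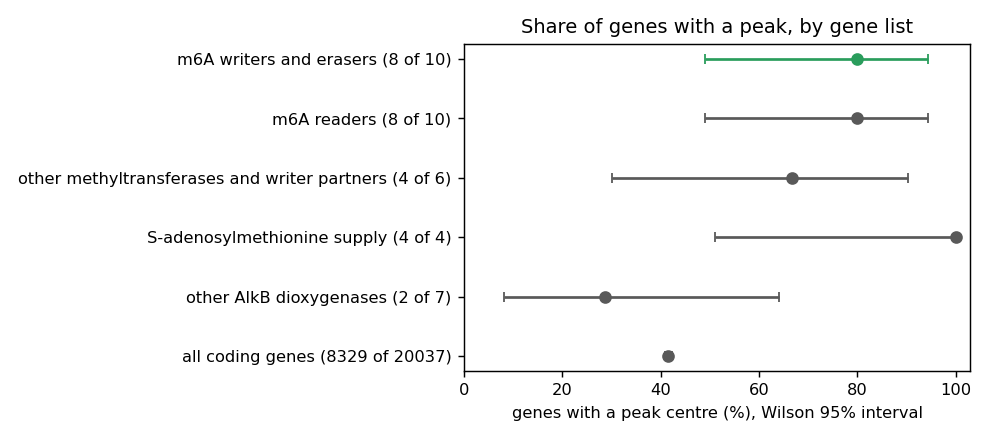
Share of genes with a peak centre in percent, with Wilson 95% intervals, for the 10 m6A writers and erasers, 4 related gene lists and all 20037 coding genes. The writers and erasers and the readers both stand at 80.0%, and all coding genes at 41.6%.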

How the data were processed

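RNA bound in an eCLIP of mouse PXR in LS174T cells was represented by 1 deposited peak list, made from 2 immunoprecipitate replicates or 1 of them (not given in the sources used here). Per the submitters' processing notes, cutadapt, BWA, MACS2 and hg38 were used, without versions. The deposited values are, per the file's narrowPeak columns, a score (10 times the −log10 q), a fold ratio, a −log10 p-value and a −log10 q-value for each peak, with the summit offset. Total reads per library were not analysed here, so depth is given by the reads at each summit. Whole reads and background were solved from fold and −log10 p. The whole number found gave back the deposited −log10 p in 21028 of 21031 peaks (tolerance 0.0001 plus a 0.00001 part). It was also right in all 3000 simulated summits. These were made with the same formulas and with backgrounds below those of RBM15B, so they check the solving only. Peak centres were assigned to gene spans of RefSeq GRCh38.p14, and gene strand and start sequences came from the RefSeq table of starts (15843 of 20037 coding genes matched). All 10 genes are named. Genes of the related lists were named for the 2 highest folds or the 2 deepest summits. Genes without a peak were named for the m6A readers only, and cell type markers were not named. Members and lists were chosen with earlier results of these data known. No tests were made, because no values of single libraries were used. Scripts used Python 3.11.15, pandas 2.3.3 and scipy 1.17.1.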

Additional observations from a re-analysis of the deposited data

How the results depend on the processing

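The number of genes with a peak, of peaks and of genes with 2 or more peaks, and the median fold and reads, were recomputed under 10 alternatives, of which 3 (leaving out RBM15B, leaving out ZC3H13 and merging peaks at most 500 bases apart) were chosen after seeing the data. Of the 50 values, 46 stayed within 1.5 times the count or within the binomial interval of the median. The other 4 came from keeping only peaks with a −log10 q at or above the median, which left 5 genes, 8 peaks, 3 genes with 2 or more peaks and a median fold of 7.18. This alternative keeps fewer peaks by its construction. Some of the 46 values were also fixed in advance. Leaving out 1 gene could not move the number of genes with a peak, or with 2 or more, beyond 1.5 times. Merging could not change the number of genes with a peak, and the strand limit removed none of the 21 peaks. Those values say nothing of stability. Without RBM15B the median summit had 13 reads in place of 21. No paired analysis was possible because the peak list has no columns of single libraries, and for the same reason no replicate could be left out. The summits of METTL14 and of 1 ZC3H13 peak had under 10 reads, so their intervals are wide.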
